A study of Sus scrofa with 12 samples.

Results

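The genes of fatty acid beta-oxidation and ketone body metabolism were described in the Semimembranosus muscle, a large muscle of the ham, of 12 Italian Large White pigs. They were 38 gene symbols of the carnitine shuttle, the mitochondrial and peroxisomal oxidation steps, the electron transfer flavoprotein, the pyruvate dehydrogenase kinases and the ketone body enzymes. The pig Ensembl gene names placed 36 of these 38 symbols on rows of the count table, out of 25880 genes listed, and ACAD8 and ECI1 were not analysed here. The rule names genes and uses no measured value, but the genes were chosen with earlier results of these data known. The samples were 6 pigs with high intramuscular fat (IMF), numbered 1 to 6, and 6 pigs with low IMF, numbered 7 to 12, none of them given an agent or carrying an engineered allele. All were housed alike, ate the same diet, weighed from 150 to 160 kg alive and were slaughtered at 229 to 249 days of age. Each group held 3 gilts and 3 barrows by the labels. The pigs were picked for extremes of IMF and sampled once, after slaughter, so the groups are a contrast between animals and not an intervention.

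Beta-oxidation shortens activated fatty acids inside the mitochondrion. Carnitine carries the long acyl chains across the inner membrane, and a repeated series of dehydrogenation, hydration, second dehydrogenation and thiolysis then releases acetyl-CoA. Electrons leave the first step through the electron transfer flavoprotein, and peroxisomes shorten very long and branched chains with enzymes of their own. Skeletal muscle burns both fatty acids and ketone bodies, and the pyruvate dehydrogenase kinases hold back the use of glucose while fat is oxidised. PPARA, a nuclear receptor that binds fatty acids and pairs with RXR, is a textbook activator of many of these genes in liver and muscle, and its level per pig was the second measure with which the genes were compared.

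The sequences in front of 4 of the genes are shown because HADHA and HADHB, the subunits of the mitochondrial trifunctional protein, start back to back, and because DECR1, ACADM and HADHB had the smallest p in the comparison with PPARA given further on. Positions are those of RefSeq models on Sscrofa11.1, matched by symbol for all 36 genes. HADHB (ENSSSCG00000008569) lies on the minus strand of chromosome 3 from 112712894 to 112753121, and HADHA (ENSSSCG00000008571) on the plus strand from 112753343 to 112797627. The 221 bases between both gene models, at chr3:112753122-112753342, are given on the strand of HADHA. DECR1 (ENSSSCG00000006126, chromosome 4, 46731359 to 46767427) and ACADM (ENSSSCG00000003776, chromosome 6, 137541481 to 137575544) are both on the minus strand, and the 250 bases upstream of each start are given 5′ to 3′ on that strand, from chr4:46767428-46767677 and chr6:137575545-137575794. Capitals mark AGGTCA on either strand, the hexamer that many nuclear receptors bind, and are found in the DECR1 sequence alone, from base -155 counted from the gene start.
HADHB-HADHA: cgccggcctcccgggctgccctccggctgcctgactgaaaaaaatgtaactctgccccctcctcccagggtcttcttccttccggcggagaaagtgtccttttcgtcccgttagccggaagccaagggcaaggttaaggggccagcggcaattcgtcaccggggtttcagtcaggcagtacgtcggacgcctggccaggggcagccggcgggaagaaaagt
DECR1: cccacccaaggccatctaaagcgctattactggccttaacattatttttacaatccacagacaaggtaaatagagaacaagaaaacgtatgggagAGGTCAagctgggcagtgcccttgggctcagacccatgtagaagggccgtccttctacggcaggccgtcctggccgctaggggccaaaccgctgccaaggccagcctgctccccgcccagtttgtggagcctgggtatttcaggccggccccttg
ACADM: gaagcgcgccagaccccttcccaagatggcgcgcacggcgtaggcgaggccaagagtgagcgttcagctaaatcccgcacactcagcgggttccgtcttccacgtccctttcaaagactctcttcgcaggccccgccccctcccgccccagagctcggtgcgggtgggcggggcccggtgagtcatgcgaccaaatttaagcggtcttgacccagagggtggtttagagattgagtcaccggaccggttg
The search covered a window from 250 bases before to 50 after the start of each gene, on both strands. AGGTCA was in the windows of 4 of the 36 genes (ACAT1, CPT2, DECR1 and ECI2), and in 14.1% of the 19527 windows of all genes. The longer TNAAGGTCA, which contains AGGTCA and is the form bound by the estrogen-related receptors, was in the window of ECI2 and in 0.922% of all windows. The repeat AGGTCANAGGTCA, the form bound by PPAR with RXR, was in 0 of the 36 windows and in 0.0307% of all. With up to 2 of its 12 fixed letters changed, it was found for ACAD9, at base -124, and in 3.32% of all windows. A match or its absence in such a window says nothing of binding.

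Counts per pig summed to between 131048805 and 178013997, and 14262 genes were tested. The counts on 2 genes of the Y chromosome, EIF1AY and KDM5D, were those of the other sex in 6 of the 12 pigs, of which 3 and 5 belong to the high and 7, 8, 9 and 10 to the low IMF group. Pigs 3, 4, 6, 9, 10 and 11 had at least 3734 such counts and the others at most 6, which gives 3 pigs of each kind in each group. The split was drawn from the widest gap after the counts were seen. The labels of single pigs, their IMF group included, are therefore in doubt, and whether libraries were exchanged was not tested. Every comparison uses the IMF groups as labelled, also those within a kind of pig. The log2FC within each kind of pig are given beside those of the genes described in full that turned direction with it, and of PDK2 and PDK3. The 3 muscle identity genes looked at (of actin, creatine kinase and desmin) summed to between 23919 and 41200 CPM. The 6 fast fibre genes summed to between 21485 and 30965 CPM in the high and between 30545 and 34309 CPM in the low IMF pigs. Fat cell genes, 8 in number, summed to between 63.1 and 133 CPM in the high IMF pigs, with a median of 96.5. In the low IMF pigs they summed to between 33.6 and 177 CPM, with a median of 87.6, so this sum did not separate the groups. RETN was at 0 in 11 pigs and LEP in 1. Liver genes summed to between 3.39 and 56.6 CPM, with TTR at 0 in 5 pigs and FGB in 1. Macrophage genes summed to between 47.0 and 100.5 CPM and endothelial genes to between 97.3 and 158 CPM. In muscle taken whole, fewer cells of a type and less RNA per cell cannot be told apart.

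All 36 genes had at least 155 counts in every pig and were tested. Per length of exon sequence, PDK4 had the highest median of them, and the level per length differed far more between genes than between groups. Levels per length are given as TPM, that is, counts divided by transcript length and scaled to the same total in each pig, over 13561 genes with a RefSeq model that hold from 50.2% to 59.4% of a pig's counts. PDK4, the kinase that switches off pyruvate dehydrogenase in fasting, had a median level per length of 2130.4 over the 12 pigs, with a range from 527 to 4596. ACADM, the medium-chain acyl-CoA dehydrogenase, followed with a median of 697 (352 to 1029). OXCT1, which activates acetoacetate for use in muscle, had a median of 441, ECHS1, the short-chain enoyl-CoA hydratase, one of 360.1 and ETFA, the alpha subunit of the electron transfer flavoprotein, one of 356. The range of PDK4 over pigs overlapped that of ACADM but lay above those of OXCT1, ECHS1 and ETFA, which reached 478, 473 and 482. The ranges of ACADM, OXCT1, ECHS1 and ETFA overlapped with each other. PDK4 lay above ACADM in 11 of 12 pigs, all but pig 1, and ACADM above OXCT1 in 11 of 12, all but pig 9, while the order of OXCT1, ECHS1 and ETFA is not settled by these data. The lowest were MLYCD, ACOX3 and CPT1A, with medians of 6.14, 4.95 and 4.41, whose ranges also overlapped. CPT1B, the muscle form of carnitine palmitoyltransferase 1, had a median of 46.7, from 29.1 to 69.1, and lay in every pig above CPT1A, the liver form, which reached 11.3.

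**Figure D1:**
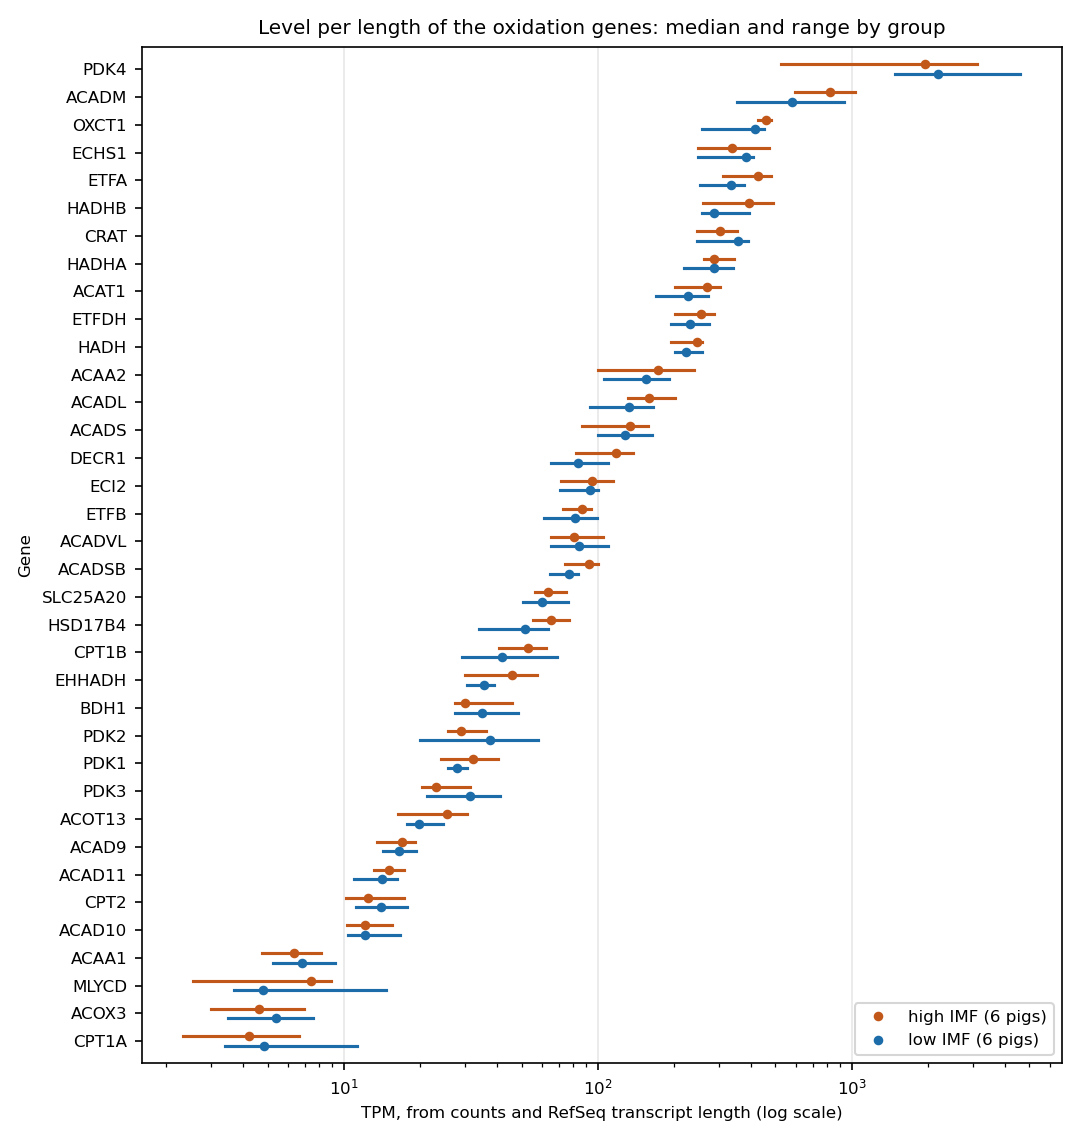
Level per length of each of the 36 genes on a log scale, in TPM computed from the counts and the length of all RefSeq exons of a gene. Points are medians and lines the range over the 6 pigs of each group. PDK4 has the highest median, 2130.4 over the 12 pigs, and the ranges of both groups overlap for every gene.

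No gene of this pathway passed the adjusted test between the high and the low IMF pigs, and the groups overlapped for all 36. By the quasi-likelihood test of edgeR, 0 of the 36 had an adjusted p at or under 0.05, as did 0.0% of all genes tested. The log2FC is low over high IMF throughout. With a nominal p, one without adjustment, of at most 0.05 there were 2 genes, PDK3 higher in the low and EHHADH higher in the high IMF group. Over all genes tested the share was 10.4%, with 5.38% higher in the low and 5.04% higher in the high IMF group, so that 2 of 36 is not above the background. Over the 36 genes the log2FC ran from -0.36 to 0.49 with a median of -0.06, beside a median of -0.01 over all genes tested. Of the 36 estimates, 13 were positive and 23 negative, where 6902 and 7360 of the 14262 genes tested were so. For 31 genes the log2FC was smaller in size than the SD between pigs of a group, which ran from 0.15 to 0.83 on the log2 scale with a median of 0.30, and the other 5 were DECR1, EHHADH, HSD17B4, OXCT1 and PDK3. In 0 of the 36 did every pig of one group lie above every pig of the other, where 0.659% of all genes tested did so. DESeq2's Wald test on the same genes, which called 0.407% of them with a log2FC of at least 0.58 in size besides an adjusted p of at most 0.05, called 0 of the 36 and gave PDK3 and EHHADH at a nominal p of at most 0.05 again. Without pig 2 there were 7 genes at a nominal p of at most 0.05, beside 14.3% of all genes. Without pig 4, 6 or 9 there were 0, beside 8.7%, 7.26% and 8.51% of all genes, and without pig 9 the median turned to 0.02. Among the 6 pigs with Y counts there were 5 such genes with a median log2FC of -0.24, beside 10.0% of all genes, and among the 6 without there were 0 with a median of 0.14, beside 3.98% of all genes.

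**Figure D2:**
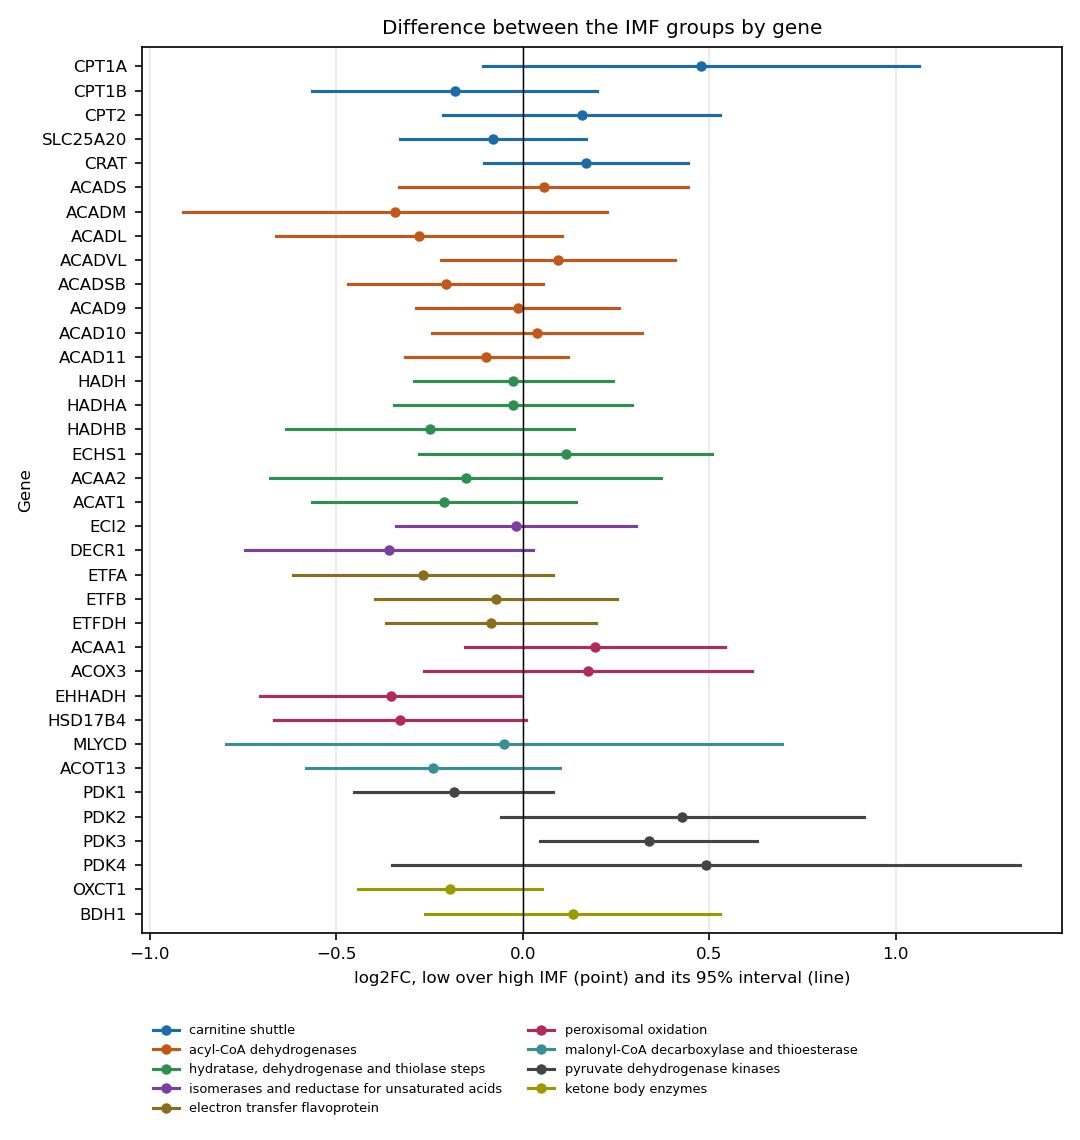
The log2FC, low over high IMF, of each gene (point) with its 95% interval (line) from edgeR's fit of 12 pigs, coloured by role. The intervals of 34 genes cross 0, and those of PDK3, from 0.05 to 0.63, and EHHADH, from -0.70 to -0.00361, do not.

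Of the 5 genes of the carnitine shuttle, 0 passed the test and 3 had a positive log2FC. CPT1A, the liver form of the enzyme that makes acylcarnitine at the outer membrane, had from 313 to 866 normalized counts, with a median of 550.4, in the high IMF pigs. In the low IMF pigs it had from 486 to 1309, with a median of 666.5. The ranges overlapped, with pigs 2 and 12 the highest of their groups. Its log2FC was 0.48 (SE 0.27, adjusted p = 0.558, edgeR), among the 3 largest in size, and ran from 0.28 without pig 12 to 0.64 without pig 2. CPT1B had from 3331 to 5591 with a median of 4808 in the high and from 2419 to 5326 with a median of 4192 in the low IMF pigs, the lowest being pig 9. The log2FC of CPT1B was -0.18 (SE 0.18, adjusted p = 0.748), or -0.07 without pig 9, and it was -0.54 among the pigs with Y counts and 0.14 among those without. The log2 ratio of CPT1A to CPT1B counts was -3.04 ± 0.72 (SD, n = 6) over high IMF pigs and -2.40 ± 0.51 (SD, n = 6) over low IMF pigs, and the groups overlapped. CPT2, which rebuilds acyl-CoA at the inner membrane, SLC25A20, the carnitine carrier, and CRAT, the carnitine acetyltransferase, had log2FC of 0.16, -0.08 and 0.17. SLC25A20 was the steadiest of the 5 between pigs, with an SD within groups of 0.20.

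Of the 8 acyl-CoA dehydrogenases, which open each round of oxidation for a given chain length, 0 passed the test and 5 had a negative log2FC. ACADM had from 32631 to 58546 normalized counts, with a median of 47434, in the high IMF pigs and from 18780.1 to 57035, with a median of 30563, in the low IMF pigs. Pigs 1 and 2 were the lowest of the high group, at 32631 and 33195, and pigs 10 and 11, at 53920.1 and 57035, stood apart from the other 4 low IMF pigs, which reached 33412. Its log2FC was -0.34 (SE 0.26, adjusted p = 0.674), from -0.53 without pig 11 to -0.21 without pig 9. ACADL, the long-chain form, had from 6481 to 10875 with a median of 8689 in the high and from 4643 to 9374 with a median of 7122 in the low IMF pigs, a log2FC of -0.28 (SE 0.18). The groups overlapped over most of their range. ACADVL, the very long-chain form on the inner membrane, had medians of 11596 and 12591 in the high and low IMF pigs and a log2FC of 0.09 (SE 0.15), which was -0.08 among the pigs with and 0.24 among those without Y counts. ACADS for short chains, ACADSB for short branched chains and ACAD9, ACAD10 and ACAD11 had log2FC between -0.21 and 0.06.

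Of the 6 genes of the hydratase, dehydrogenase and thiolase steps, 0 passed the test and 5 had a negative log2FC. HADHB, the beta subunit of the trifunctional protein with the thiolase activity, had from 18685 to 36386 normalized counts with a median of 30097 in the high IMF pigs. In the low IMF pigs it had from 18157 to 30571 with a median of 23518. Its log2FC was -0.25 (SE 0.18, adjusted p = 0.652). HADHA, the alpha subunit that starts on the other side of the sequence shown above, had medians of 24776 and 23371 and a log2FC of -0.03 (SE 0.15, adjusted p = 0.971), which was -0.23 among the pigs with and 0.16 among those without Y counts. The log2 ratio of HADHA to HADHB counts was -0.12 ± 0.28 (SD, n = 6) over high IMF pigs and 0.07 ± 0.30 (SD, n = 6) over low IMF pigs, and it ran from -0.56 in pig 6 to 0.59 in pig 7. The ratio of both subunits thus differed between pigs by more than between groups. ECHS1 had from 7938 to 15864 with a median of 10632 in the high and from 7622 to 15751 with a median of 13003 in the low IMF pigs, and its log2FC was 0.12 (SE 0.18), or -0.11 among the pigs with and 0.34 among those without Y counts. HADH, the short-chain hydroxyacyl-CoA dehydrogenase, ACAA2, the mitochondrial thiolase, and ACAT1, the acetoacetyl-CoA thiolase, had log2FC of -0.02, -0.15 and -0.21.

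DECR1, the reductase that lets polyunsaturated chains enter the cycle, had from 5750 to 10053 normalized counts with a median of 8663 in the high and from 4906 to 8556 with a median of 5730 in the low IMF pigs. Pigs 1 and 2, with 5750 and 5802, lay among the low IMF pigs, and pigs 10 and 11, with 7736 and 8556, above the other low IMF pigs. The log2FC of DECR1 was -0.36 (SE 0.18, adjusted p = 0.502). ECI2, an enoyl-CoA isomerase, had a log2FC of -0.02. For the electron transfer flavoprotein, which takes the electrons of all acyl-CoA dehydrogenases, ETFA had from 12786 to 21678 with a median of 19496 in the high and from 10582 to 17784 with a median of 15274 in the low IMF pigs, a log2FC of -0.27 (SE 0.16, adjusted p = 0.589). ETFB, the beta subunit, and ETFDH, which passes the electrons on to ubiquinone, had log2FC of -0.07 and -0.08. The log2 ratio of ETFA to ETFB counts was 2.63 ± 0.19 (SD, n = 6) and 2.46 ± 0.19 (SD, n = 6) in the high and low IMF pigs, the tightest of the ratios computed, and the groups overlapped.

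Among the 4 peroxisomal genes, EHHADH, the bifunctional enzyme of the peroxisome and a well-known PPARA target in liver, was the 1 with a nominal p of at most 0.05. It had 3705, 4785, 8046, 6381, 7549 and 5982 normalized counts in pigs 1 to 6 and 4789, 4315, 4662, 4740.2, 5567 and 4447 in pigs 7 to 12. The low IMF pigs lay close together, with 4753 ± 438 (SD, n = 6), while the high IMF pigs spread around 6075 ± 1640 (SD, n = 6) and had the lowest pig of all, pig 1. Its log2FC was -0.35 (SE 0.16, adjusted p = 0.475 in edgeR), with a range from -0.47 to -0.26 over the fits that each lack 1 pig. Its nominal p rose above 0.05 in 9 of these 12 fits, and also with DESeq2's size factors, in limma-voom and with labelled sex or age as a covariate. HSD17B4, the other bifunctional enzyme, had a log2FC of -0.33 (SE 0.16, adjusted p = 0.490). ACAA1, the peroxisomal thiolase, and ACOX3, an oxidase for branched chains, had log2FC of 0.19 and 0.17, the latter with from 483 to 1094 normalized counts in the high and from 601 to 1183 in the low IMF pigs. MLYCD, which removes malonyl-CoA, the inhibitor of carnitine palmitoyltransferase 1, ran from 179.8 in pig 5 to 895 in pig 12 and had a log2FC of -0.05 (SE 0.35). Its log2FC was -0.90 among the pigs with Y counts and 0.63 among those without. ACOT13, a mitochondrial thioesterase, had medians of 4611 and 3534 in the high and low IMF pigs and a log2FC of -0.24 (SE 0.16).

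The pyruvate dehydrogenase kinases were the role with the highest median log2FC, 0.38 over 4 genes, picked after the values of all roles were seen. Of the 4 estimates, 3 were positive, where 6902 of the 14262 genes tested were. A nominal p of at most 0.05 in edgeR was met by 1 of the 4, beside 10.4% of all genes tested. PDK3 (ENSSSCG00000012181, chromosome X, 20486205 to 20598492) had 9529, 10975, 10054, 8912, 13492 and 9093 normalized counts in pigs 1 to 6 and 12885, 13047, 16505, 14348, 9821 and 11857 in pigs 7 to 12. Pigs 2, 3 and 5 lay above pig 11, the lowest of the low IMF pigs, so the groups overlapped. The log2FC of PDK3 was 0.34 (SE 0.14, adjusted p = 0.441 in edgeR), from 0.26 to 0.43 over the fits that lack 1 pig, of which 5 of 12 had a nominal p above 0.05, and it was 0.53 among the pigs with Y counts and 0.15 among those without. PDK4 had the largest log2FC in size of the 36 genes over all 12 pigs, 0.49 (SE 0.39, adjusted p = 0.685), and also the widest spread, from 53788 in pig 1 to 440889 in pig 12, an 8.20-fold range. That log2FC was 0.29 without pig 1 and 0.32 without pig 12, and CPT1A, with 0.47 without pig 1, was then larger. The median of PDK4 was 220600.4 in the high and 245886 in the low IMF pigs, and its log2FC was -0.06 among the pigs with Y counts and 0.91 among those without. PDK2, the most widely expressed form, had from 2827 to 3581 in the high IMF pigs and from 2256 to 7310 in the low IMF pigs, where pig 7 was highest and pig 10 lowest. Its log2FC was 0.43 (SE 0.23, adjusted p = 0.521), which fell to 0.21 without pig 7, and it was 0.14 among the pigs with and 0.65 among those without Y counts. PDK1, the form known for its rise in hypoxia, had a log2FC of -0.19. The log2 ratio of PDK4 to PDK2 counts was 5.72 ± 1.08 (SD, n = 6) over high IMF pigs and 6.05 ± 0.75 (SD, n = 6) over low IMF pigs.

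Of the ketone body enzymes, OXCT1 had from 22676 to 27541 normalized counts with a median of 26610 in the high IMF pigs. In the low IMF pigs it had from 17334 to 27684 with a median of 21580.2. Its log2FC was -0.20 (SE 0.11, adjusted p = 0.574), and the low IMF pigs covered the whole range of the high IMF pigs. BDH1, which interconverts hydroxybutyrate and acetoacetate, had medians of 4345 and 4709 in the high and low IMF pigs and a log2FC of 0.13 (SE 0.18, adjusted p = 0.834), with pig 7 highest at 8149. Its log2FC was -0.15 among the pigs with and 0.39 among those without Y counts, and -0.03 without pig 7.

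For 31 of the 36 genes the spread between pigs of a group exceeded the log2FC between the groups, and 5 pigs lay below the mean of their group for most genes. They were pig 1 with 31 genes below, pig 2 with 29, pig 8 with 21, pig 9 with 34 and pig 12 with 23, of which pigs 1, 2 and 9 were the lowest by the median. Taken as the median deviation from the mean of the pig's own group, on the log2 scale, the 36 genes stood at -0.22 in pig 1, -0.29 in pig 2 and -0.35 in pig 9, against -0.07 to 0.21 in the other 9 pigs. The median deviation over all genes tested was at most 0.02 in size in every pig. Pig 9 was the lowest low IMF pig for 26 of the 36 genes, beside 15.8% of all genes tested. Pigs 1 and 2 were the lowest 2 high IMF pigs for 21 of the 36, beside 12.9% of all genes tested. Pig 5 was the highest of its group for 17 genes and pig 7 for 15, where the shares of all genes were 14.8% and 21.3%. These pigs were singled out after the values were seen, and the counts are a description. Together the 36 genes held between 0.247% and 0.572% of the counts of a pig, and between 0.192% and 0.270% without PDK4.

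Markers of mitochondrial content moved with this pattern. The 12 genes looked at, of citrate synthase, the respiratory chain, ATP synthase and mitochondrial import, had a median deviation of -0.29, -0.36 and -0.38 in pigs 1, 2 and 9, and of at least -0.20 in the other pigs. Their summed level was between 2149 and 3140.4 CPM in the high and between 2297 and 3134 CPM in the low IMF pigs, and 0 of the 12 had a nominal p of at most 0.05 between the groups. The 6 slow fibre genes, whose fibres are rich in mitochondria, had median deviations of -0.79, -0.25 and -0.22 in pigs 1, 2 and 9, but also -0.30 in pig 3, -0.21 in pig 8, -0.32 in pig 10 and -1.07 in pig 12. Their summed level ran from 2053 to 4861 CPM in the high and from 1565 to 4839 CPM in the low IMF pigs. The part of mitochondrial content or of fibre type in the values of the 36 genes was not tested.

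**Figure D3:**
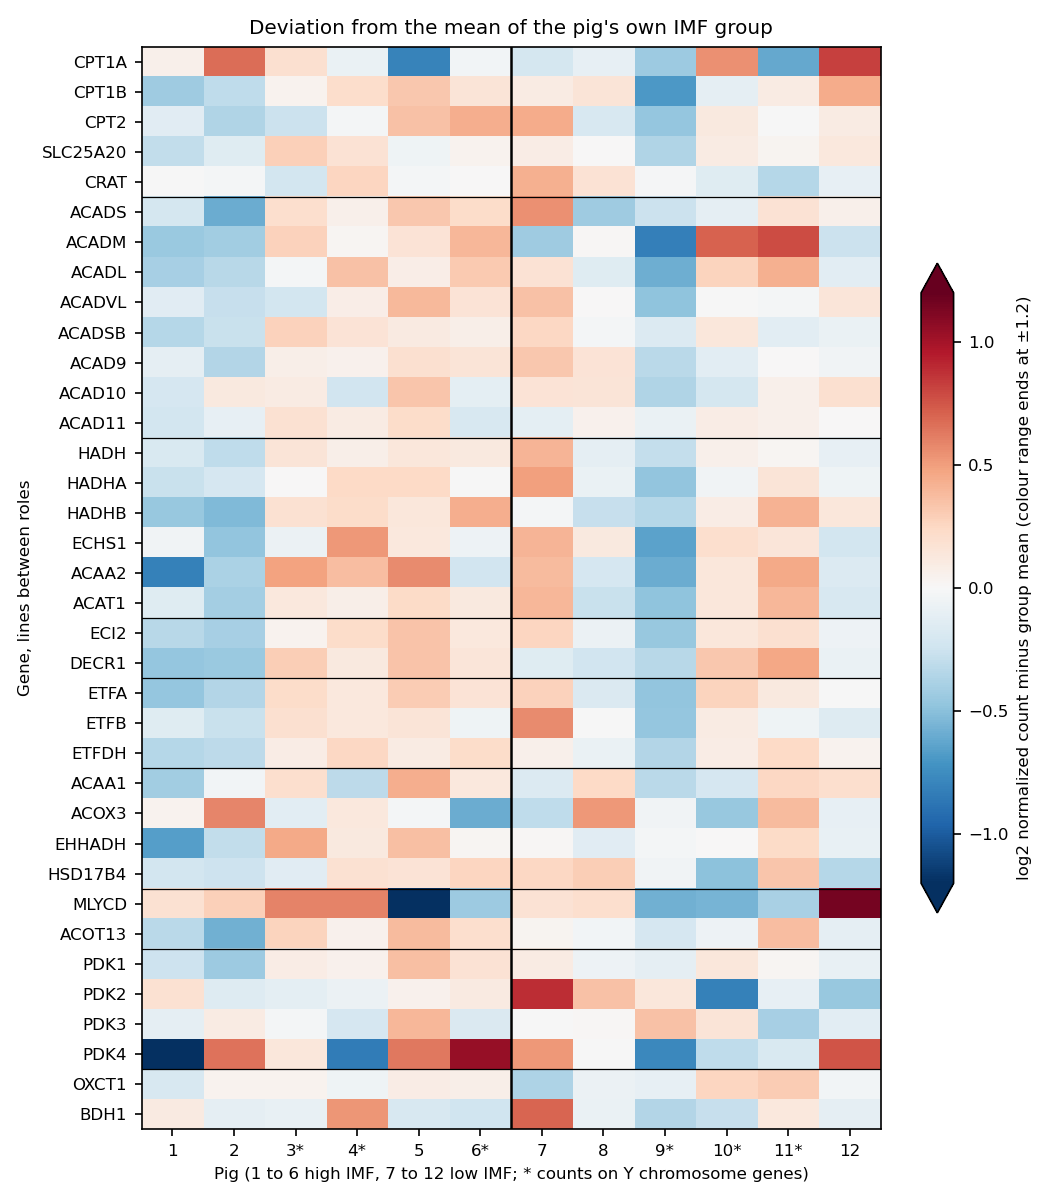
Log2 normalized count of each gene in each pig minus the mean of the pig's own IMF group, with blue below and red above that mean and lines between roles. Stars mark pigs with Y chromosome counts. Pigs 1, 2 and 9 are below their group for most genes, with median deviations of -0.22, -0.29 and -0.35.

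PPARA (ENSSSCG00000000006) had from 992 to 1529 normalized counts with a median of 1174 in the high IMF pigs, and from 1571 to 2298 with a median of 1902 in the low IMF pigs. Its comparison with the oxidation genes was therefore made within the groups. The slope is the log2 change of a gene for each log2 unit of PPARA, relative to the mean of each group. Most slopes of the oxidation genes were negative, 27 of 36, with a median of -0.43, where 50.7% of the slopes of all genes were negative and their median was -0.01. After adjustment over all 14261 genes, 0 of the 36 passed in edgeR, beside 0.0351% of all genes. At a nominal p of at most 0.05 there were 10 negative slopes and 0 positive ones, where 7.86% of all genes were negative and 8.9% positive. The 10 were ACADL, ACADM, ACAT1, ACOT13, DECR1, EHHADH, ETFA, ETFDH, HADHB and PDK1. They include 2 of 8 acyl-CoA dehydrogenases, 2 of 6 genes of the later steps, 2 of 3 genes of the electron transfer flavoprotein and 0 of 5 genes of the carnitine shuttle.

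DECR1 had the smallest p, with a slope of -1.18 (SE 0.31, adjusted p = 0.111 in edgeR). In DESeq2's Wald test, which called 4.25% of all genes, its adjusted p was 0.0179. The slope of ACADM was -1.66 (SE 0.45, adjusted p = 0.123 in edgeR and 0.0203 in the Wald test), and that of HADHB was -1.09 (SE 0.32, adjusted p = 0.148 and 0.0441). These 3 were the genes of the 36 that the Wald test called. ACOT13 and ACADL followed with slopes of -0.94 (SE 0.31, adjusted p = 0.181) and -1.02 (SE 0.34, adjusted p = 0.182). Over the 12 fits that each lack 1 pig, DECR1 ran from -1.34 to -1.08, ACADM from -1.80 to -1.47 and HADHB from -1.43 to -0.92. HADHA, beside HADHB in the genome, had a slope of -0.30 (SE 0.37), and CPT1B one of -0.11 (SE 0.45). Positive slopes, none past the nominal threshold, were those of CPT1A, 0.93, MLYCD, 1.44, ACOX3, 0.79, PDK2, 0.34, ACAD10, 0.33, CRAT, 0.29, PDK4, 0.25, PDK3, 0.19, and BDH1, 0.11. Without pig 2 there were 5 genes with a negative slope at a nominal p of at most 0.05, beside 4.52% of all genes, and the median slope was -0.24. Without pig 12, 183 genes of the whole table passed the adjustment in edgeR and HADHB was among them.

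**Figure D4:**
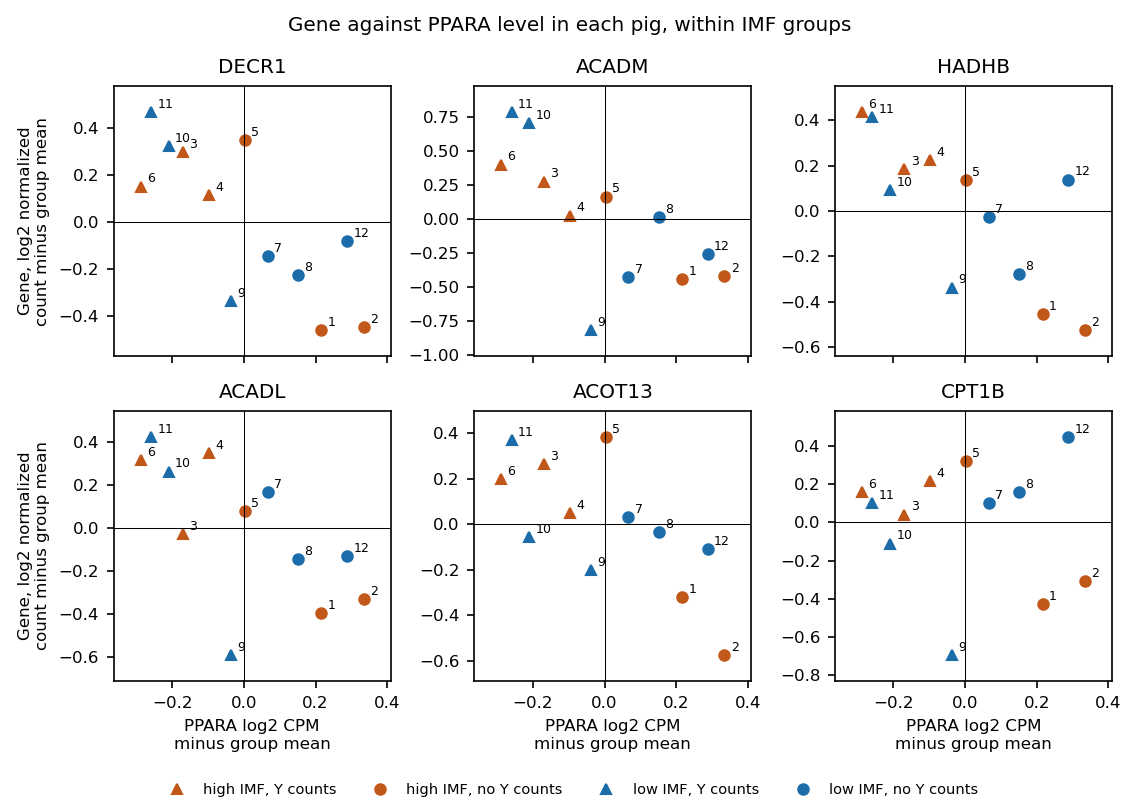
Log2 normalized count of 6 genes (vertical axis) against the PPARA level in log2 CPM (horizontal axis), each as the difference from the mean of the pig's own IMF group. Numbers are pigs, colours the groups and shapes the presence of Y chromosome counts. DECR1, ACADM and HADHB, with slopes of -1.18, -1.66 and -1.09, run from upper left to lower right, and CPT1B, with -0.11, does not.

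Correlations with PPARA were also taken within each group. In the 6 high IMF pigs, HADHB had a Pearson r of -0.97 with PPARA (exact permutation p = 0.00278, adjusted p = 0.252 over 14261 genes) and a Spearman rho of -0.94 (exact permutation p = 0.0167). In the 6 low IMF pigs its r was -0.40 (exact permutation p = 0.442) and its rho -0.26. Without pigs 1 and 2, the farthest from the median of PPARA among high IMF pigs, the r of HADHB was -0.89. For ACADM, r was -0.95 (exact permutation p = 0.00972) in the high and -0.63 (exact permutation p = 0.193) in the low IMF pigs, with rho of -0.89 and -0.49, and -0.76 without pigs 1 and 2. For DECR1, r was -0.82 (exact permutation p = 0.0639) in the high and -0.72 (exact permutation p = 0.121) in the low IMF pigs, with rho of -0.54 and -0.49. Without pigs 1 and 2 the r of DECR1 in the high group was 0.52, so there the relation rests on these 2 pigs. Among low IMF pigs, EHHADH had an r of -0.78 (exact permutation p = 0.0431). Over all 36 genes, r was negative for 29 in the high IMF pigs, where 50.8% of all genes tested were negative, and for 19 in the low IMF pigs, beside 49.4%. No adjusted p of any gene was under 0.252, the smallest of all. The difference of the slopes between groups had a nominal p of at most 0.05 for 1 of the 36, CPT1B, beside 3.49% of all genes, and 0 passed the adjustment. HADHB, ACADM and DECR1 were not past the nominal threshold, so their slopes are not shown to differ between the groups.

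The PPARA level split by the Y chromosome counts, with a narrow gap. Relative to its group, PPARA was higher in each of the 6 pigs without Y counts, from 0.00308 upwards in log2 CPM, than in each of the 6 with them, which reached -0.04. The share of all genes that split this way is not given here. The slopes were therefore also taken within each kind of pig. Among the pigs with Y counts the median slope of the 36 genes was -1.19 and 4 were negative at a nominal p of at most 0.05, beside 2.23% of all genes. Among the pigs without Y counts the median was -1.34, and 8 were negative, beside 2.63% of all genes, and 2 positive. With the kind of pig as a term in the fit of all 12, the median was -1.46 and 18 were negative, beside 5.47% of all genes, and 2 positive, while 0 of the 36 passed the adjustment. DECR1, ACADM and HADHB had slopes of -2.29, -5.35 and -2.39 among the pigs with and of -1.57, -1.22 and -1.01 among those without Y counts. With Y counts, ACADM and HADHB had a nominal p of at most 0.05 and DECR1 did not. Without Y counts, none of these genes did. Each of these fits rests on 3 pigs of each group. MLYCD, in contrast, had positive slopes of 1.66 and 4.74, and CPT1A slopes of -0.87 and 4.49. Mitochondrial content markers again moved alike, with 12 of 12 slopes negative, a median of -0.67 and 4 genes (TFAM, UQCRC2, ATP5F1A and TOMM20) at a nominal p of at most 0.05. Of the slopes of all genes, 50.7% were negative, and 7.86% were so at that p. The part of these markers in the slopes of the 36 genes was not tested. Slow fibre genes had 6 of 6 negative slopes with a median of -1.23, of which that of MYL2 had a nominal p of at most 0.05.

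**Figure D5:**
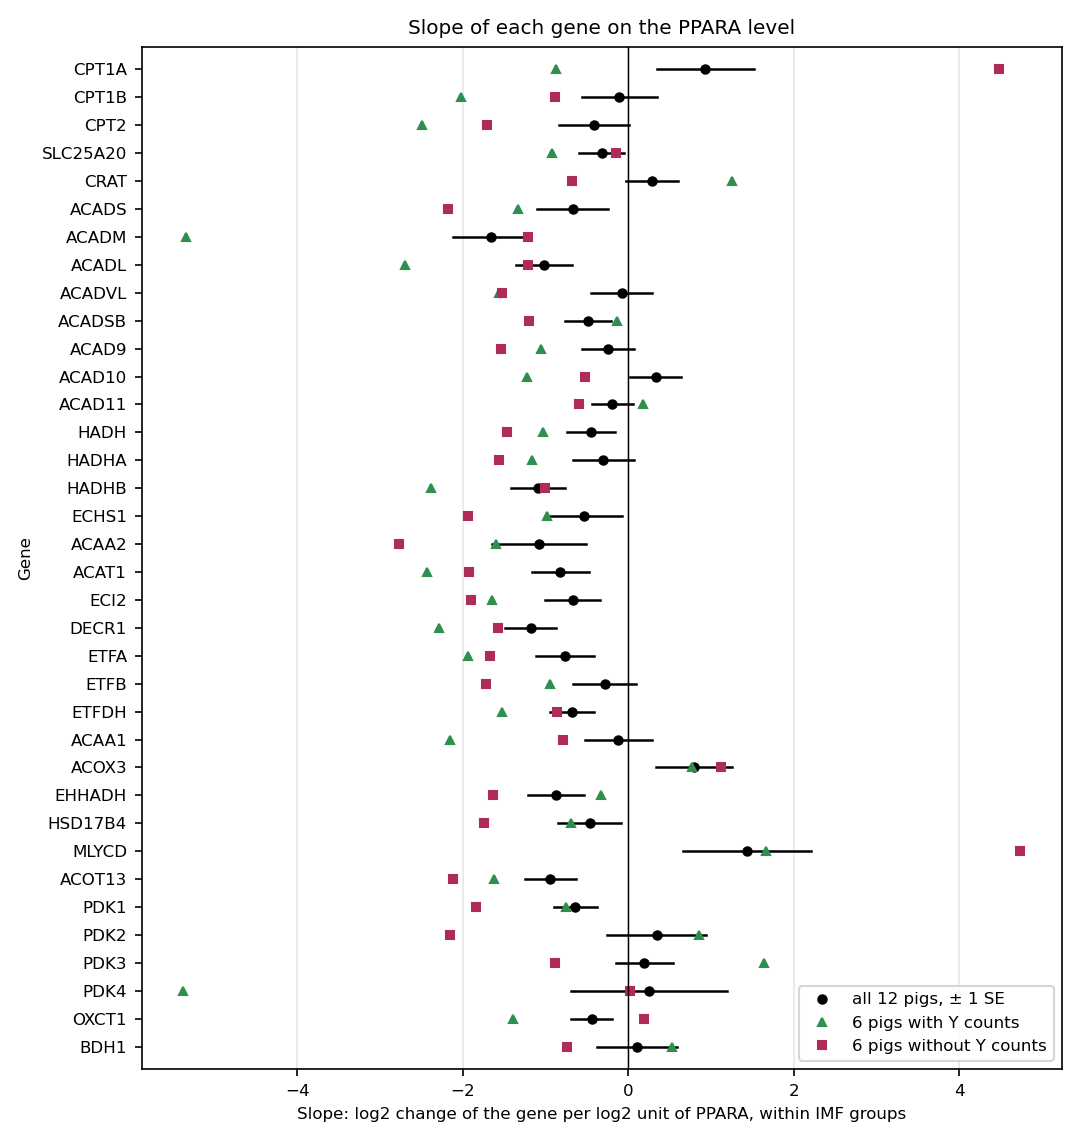
Slope of each gene on the PPARA level within IMF groups, in log2 units of the gene per log2 unit of PPARA. Black points with lines are the fit of all 12 pigs ± 1 SE, triangles the 6 pigs with and squares the 6 pigs without Y chromosome counts. Most points lie left of 0, and MLYCD and ACOX3 lie right of it in all 3 fits.

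Genes of the same pathway outside the 36 were counted for 48 symbols, of which 46 were tested. Of these, 0 passed the adjustment between the groups and 5 had a nominal p of at most 0.05, beside 10.4% of all genes tested. That count is near the background, and 4 of the 5 are given. UCP3, an uncoupling protein of muscle mitochondria that PPARA agonists induce, had a log2FC of 1.40 (SE 0.54, adjusted p = 0.441). PDPR, the regulator of the pyruvate dehydrogenase phosphatase that opposes the kinases, had 0.32 (SE 0.11). ACAT2, the cytosolic acetoacetyl-CoA thiolase, and LYPLAL1, a lysophospholipase-like protein, had -0.53 (SE 0.24) and -0.52 (SE 0.23). On PPARA, 34 of the 46 slopes were negative with a median of -0.31, where 50.7% of the slopes of all genes were negative. At a nominal p of at most 0.05 there were 11 negative slopes, beside 7.86% of all genes, and 2 positive ones, beside 8.9%. The negative ones were those of PHYH (-1.78), DLD (-0.90), ACSL3 (-0.86), HIBCH (-0.81), MCEE (-0.80), ACOX2 (-0.75), IVD (-0.73), HSD17B10 (-0.71), PDHX (-0.71), CROT (-0.64) and PDHB (-0.61). The 2 positive ones were UCP3 (2.91) and ACOT11 (2.07), a thioesterase known from brown fat. Of the 7 regulators, 3 had a nominal p of at most 0.05 between the groups, beside 10.4% of all genes tested. They were PPARA with a log2FC of 0.63, PPARGC1A with 0.92 and RXRA with 0.92, all higher in the low IMF pigs. Adjusted p-values of these 3 in edgeR ran from 0.199 to 0.434. The paper, with DESeq2's Wald test, did call PPARA, as higher in the low IMF pigs. In edgeR, 0 regulators besides PPARA had a slope on PPARA at a nominal p of at most 0.05.

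Markers of other cell types and fibre types were compared in the same way. Between the groups, 10.4% of all genes tested had a nominal p of at most 0.05. Among these markers they were ATP2A1 (log2FC 0.46) and MYBPC2 (0.34) of the 6 fast fibre genes, AIF1 (-0.46) of the 5 macrophage genes and CDH5 (0.55) of the 4 endothelial genes. The count was 0 of 6 slow fibre genes, 0 of 3 muscle identity genes, 0 of 7 fat cell genes tested and 0 of 4 liver genes. All 6 fast fibre genes had a positive log2FC, with a median of 0.21, where 6902 of the 14262 genes tested had one. Of the 6 slow fibre genes, 5 had a negative one, with a median of -0.17. Of the 7 fat cell genes, 5 had a positive one, with a median of 0.14. On PPARA, 8.9% of all genes had a positive slope at a nominal p of at most 0.05, and 0 of the muscle identity and liver genes. The markers with one were LIPE (slope 2.40) of the fat cell genes, CSF1R (1.03) of the macrophage genes, CDH5 (0.76) and ATP2A1 (0.65). Other genes of the same lists went the other way. Slopes were negative for 3 of 7 fat cell, 3 of 5 macrophage, 2 of 4 endothelial and 3 of 6 fast fibre genes. None passed the adjustment over all genes, and their part in the values of the oxidation genes was not tested.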

How the data were processed

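Polyadenylated RNA of 12 pigs was sequenced from stranded libraries. Per the labels, the authors used FastQC, Trimmomatic, HISAT2, StringTie, HTSeq and DESeq2, and they deposited whole-number read counts per Ensembl gene, not normalized, on pig genome build 11.1. Which annotation release was counted, with what strand setting, and how reads aligned to several places were treated, are not given in the sources used here, so overlapping genes and near-identical copies are uncertain. Which pigs shared a slaughter day or a lane was not analysed here.

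Of 25880 genes listed, 20341 had at least 1 count and 14262 passed edgeR's filterByExpr. Counts were scaled by TMM and compared with edgeR's quasi-likelihood test (edgeR 4.0.16, R 4.3.3, 10 residual and 3.54 prior degrees of freedom, common biological coefficient of variation 0.332), group alone as the term, Benjamini-Hochberg adjustment over all genes tested. DEGs needed a log2FC beyond 0.58 in either direction besides an adjusted p of at most 0.05. A nominal p is one without adjustment. The slope on PPARA used its log2 CPM (prior count 2) centred within groups, with the group as a term. Correlations within groups ran over all 720 pairings, two-sided. Each pig is 1 animal, counted once. The smallest count of an oxidation gene in a pig was 155, so the spread between pigs exceeds counting error. The 95% intervals use the t distribution of the edgeR fit.

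Alternatives were other scalings and filters, DESeq2 1.42.0, limma-voom (limma 3.58.1), covariates, and pigs left out. Within-kind fits by Y chromosome counts were added after the data were seen. Levels per length used the length of all RefSeq exons of a gene on Sscrofa11.1, overlaps counted once. The edgeR fits were also run in R on simulated counts, and the outcome is not given here. Correlations and levels per length were computed with scipy 1.17.1, pandas 2.3.3 and numpy 2.4.6 under Python 3.11.15. The genes, roles, marker lists and tests were chosen with earlier results of these data known.

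Genes given with full values are those with a nominal p of at most 0.05 between groups, the 3 largest log2FC, the 5 smallest p on PPARA, the 5 highest and 3 lowest per length, and CPT1A, CPT1B, HADHA, HADHB, ACADVL, ACADM, PDK4, OXCT1 and BDH1, 19 in all. Single pigs were singled out after their values were seen. The values of 1 other gene of the pathway are not reported here.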

Additional observations from a re-analysis of the deposited data

Results flagged for a closer look

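Among 74 checks of a gene in a group of 6 pigs for 1 pig far from the rest, 1 was met, and chance meets about 1 in 20. SLC25A20, the carnitine carrier, had 2629 normalized counts in pig 9, the lowest of the low IMF group, against 3379 to 3666 in the other 5. The gap to the nearest pig was 0.754 of the range of the group, above Dixon's critical value for 6 samples. Pig 9 was also the lowest of its group for 26 of the 36 genes, and the cause was not tested.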

How the results depend on the processing

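No paired analysis was possible because pigs are numbered 1 to 12 and the groups share no replicate number. Of the named genes' values under the alternatives, 470 of the log2FC kept their direction and side of the threshold and 24 turned, and 393 slopes kept them, 21 turned and 4 passed the threshold. Counts of DEGs over all genes were 58 in DESeq2's Wald test on the same genes, 65 on all genes with a count, and 5 among the pigs with Y counts. Oxidation genes at a nominal p of at most 0.05 between groups numbered 1 with DESeq2's size factors, beside 10.4% of all genes. They numbered 1 among the 6 pigs whose Y counts match the labelled sex, beside 4.05% of all genes. Among pigs with Y counts they were 5, beside 10.0%. Among pigs without Y counts they were 0, beside 3.98%, and their median log2FC was 0.14. With 1 pig left out, DEGs numbered 0 to 1. Oxidation genes at a nominal p then numbered 0 to 7, beside 7.26% to 14.3% of all genes. The median log2FC of the oxidation genes ran from -0.10 to 0.02 in these fits. Genes of the whole table related to PPARA numbered 5, and 25 with upper-quartile scaling, 606 in DESeq2's Wald test, 1 with sex by Y counts as a covariate, 18 with age, 0 among pigs with and 0 among pigs without Y counts, and 0 to 183 with 1 pig left out, the most without pig 12. Upper-quartile scaling moved the median slope of all genes to 0.08. Oxidation genes with a nominal slope numbered 20 with sex by Y counts, 18 negative and 2 positive, beside 10.1% of all genes. They numbered 4 among pigs with Y counts, beside 4.36%, and 5 to 13 with 1 pig left out, beside 9.68% to 18.3%. Their median slope was -1.46 with sex by Y counts, -1.19 among pigs with and -1.34 among pigs without Y counts, and -0.46 to -0.24 with 1 pig left out.

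Among the 6 pigs whose Y counts match the labelled sex, which are 4 high and 2 low IMF pigs, the median log2FC of the 36 genes was 0.06, and the log2FC was 0.00657 for ACADM, 0.0727 for ACOT13, 0.16 for CPT1B, 0.00423 for DECR1, 0.067 for HADHA, 0.0817 for HADHB and 0.32 for MLYCD. Among pigs with Y counts it was -0.0816 for ACADVL, -0.15 for BDH1, -0.11 for ECHS1 and -0.0584 for PDK4, and among those without 0.14 for CPT1B, 0.16 for HADHA and 0.63 for MLYCD. The slope of PDK4 was -0.00953 in limma-voom, -1.98 with sex by Y counts and -5.38 among pigs with Y counts, where that of CPT1A was -0.87. With sex by Y counts, BDH1 had -0.45 and PDK2 -1.19. Among pigs without Y counts, BDH1 had -0.73, OXCT1 0.19, PDK2 -2.16 and PDK3 -0.88. With 1 pig left out, the log2FC ran from -0.13 to 0.0567 for HADHA, -0.37 to 0.0656 for MLYCD and -0.0345 to 0.26 for BDH1, and the slope from -0.51 to 0.19 for CPT1B, -0.17 to 0.19 for ACADVL, -0.24 to 1.19 for PDK4, -0.084 to 0.29 for BDH1, -0.0392 to 0.76 for PDK2 and -0.0612 to 0.41 for PDK3. The cause of these changes was not tested. With 6 pigs a group, fits within a kind of pig rest on 3 pigs of each group.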
